A study of Ovis aries with 95 samples.

Results

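The hippocampus of the sheep fetus was compared between 80 d of gestation and the end of gestation. Its members are the arrays labelled hippocampus at 80 d and at 145 d, 4 of each, so that 8 of the 95 arrays of the series entered the comparison, and all gene probes were used. Every array carries the RNA of one sample, labelled with Cy3, so that each value is a level in that sample and not a ratio. The fetuses were untreated, their ewes showed no sign of labor, and the submitters' notes give 142 to 144 d as the true age of the group labelled 145 d. The same notes state that each group held 1 set of twins. The labels mark neither the twins nor the animals, so all arrays were treated as independent, and the p values measure only the spread between these samples. The other hippocampus arrays of the series (100 d, 120 d, 130 d and 1 d after birth) served for the estimate of the spread and for the levels between the ends of the comparison, which makes 23 hippocampus arrays in all.

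The hippocampus builds its neurons early and its glia late. Granule neurons of the dentate gyrus go on being born after the pyramidal neurons, and immature granule neurons carry the transcription factor NEUROD1. Astrocytes and oligodendrocytes mature after the neurons do, and in the sheep, as in the human, much of this takes place before birth. The hippocampus also holds many receptors for glucocorticoids, whose level in the fetal blood rises as term comes near. Each sample is a whole piece of tissue, so fewer cells of a type and less RNA per cell cannot be told apart.

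An array probe is a DNA strand of 60 bases, and what it measures is set by its sequence. Those of 5 genes on which the results turn are shown because each stands for one of the groups described below, and a 6th because it is among the largest rises and the files give it no symbol. They are written 5′ to 3′ as the array design gives them, in lower case, with no part marked.
EAAT2: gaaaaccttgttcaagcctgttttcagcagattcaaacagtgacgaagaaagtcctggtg
MT3: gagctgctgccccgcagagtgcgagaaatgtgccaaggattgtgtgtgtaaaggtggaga
FGF1: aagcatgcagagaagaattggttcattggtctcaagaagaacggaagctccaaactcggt
LMNB1: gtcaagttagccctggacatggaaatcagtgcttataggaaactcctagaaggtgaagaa
YBX1: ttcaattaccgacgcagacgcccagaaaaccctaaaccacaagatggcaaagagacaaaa
A_70_P022141: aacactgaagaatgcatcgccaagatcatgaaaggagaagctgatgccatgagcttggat
EAAT2 and MT3 stand for astrocytes, FGF1 for growth factors, LMNB1 for dividing cells and YBX1 for proteins that bind RNA. A gene symbol was found for 1562 of the 15008 probes, or 967 symbols in all, and the others go by the name of the probe.

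Signal over background stands for depth on an array. The share of gene spots that the scanner software called well above background was 81.7, 81.4, 75.2 and 74.7% at 80 d and 84.5, 84.1, 73.2 and 64.6% at 145 d (replicates 1 to 4). The 2 groups overlapped, and their means of 78.3% ± 3.86 and 76.6% ± 9.56 (SD, n = 4) gave an exact two-sided permutation p of 0.886, where 4 arrays against 4 cannot go below 0.0286. Replicate 4 of 145 d stood apart. On the first principal component of the 23 arrays, which held 47.7% of the variance, it lay at 77.4, while the other 145 d arrays lay at 15.9, -24.7 and -36.8 and the 80 d arrays between -43.3 and -25.2. The 4 further arrays beyond 70 on this component were 1 each of 100 d, 120 d, 130 d and 1 d after birth. All 5 are on slide 4, which was scanned in another session and had a median local background of 76.0 to 81.0 against 47.0 to 50.5 on the other slides, and 3 arrays of the same slide did not stand apart. The second component (11.9% of the variance) followed age. Of the means of all 24 groups of region and age, replicate 4 correlated best over the probes with hippocampus at 130 d (r = 0.960), then with hippocampus at 120 d (0.941) and least with hippocampus at 80 d (0.875), and it correlated with the mean of the other 145 d arrays at 0.923. The group means of 100 d, 120 d, 130 d and 1 d after birth each hold 1 of the other arrays that stood apart. Its deviation from the other 145 d arrays moved with the GC content of the probes, from a median of -0.13 on the log2 scale for 30 to 40% GC to 0.23 for 50 to 60%. With the slide in the fit 837 probes changed from 80 d to 145 d (as a fixed block) or 880 (as a random block), and 869 without slide 4, against 578 with neither. The part of background and GC content in the results was not tested, and the results are given with and without replicate 4. The groups share slides: replicates 1 and 2 of both ages are on slide 1, 80 d replicate 4 and 145 d replicate 3 on slide 3, and 80 d replicate 3 alone on slide 2.

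**Figure D1:**
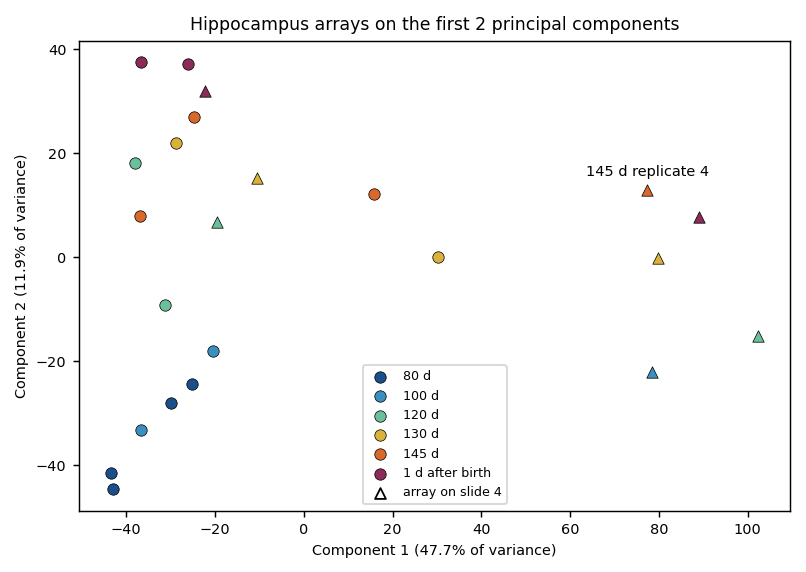
Hippocampus arrays on the first 2 principal components of the log2 levels, with each component's share of the variance on its axis; colours give the age, and triangles the arrays on slide 4. The 80 d arrays sit at the lower left, 145 d replicate 4 sits at 77.4 on component 1 with 4 other arrays of slide 4, and component 2 runs with age.

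After the filter on dim probes, 13486 probes were tested with limma, at a Benjamini-Hochberg adjusted p under 0.05. From 80 d to 145 d, 578 probes changed, which is 4.29% of those tested, 278 of them higher (2.06%) and 300 lower (2.22%) at 145 d. Without 145 d replicate 4, 384 probes changed (2.85%), 193 higher (1.43%) and 191 lower (1.42%), and 371 of them were among the 578, all in the same direction. Before adjustment 2185 probes had a p under 0.05 with all arrays and 1545 without replicate 4. Of the 578, 453 changed by at least 1 and 108 by at least 2 on the log2 scale, 71 of the latter higher and 37 lower. The 4 arrays of each age did not overlap for 564 of the 578, against 15.5% of all probes with a value on all 8 arrays. The count of rises depends on the scaling. With each array centred on its median in place of quantile normalization 359 probes changed, 23 higher and 336 lower, and scaling Agilent's processed signal by the 75th percentile of each array gave 490, 280 higher and 210 lower, where the median of all probes moved by 0.25 on the log2 scale. Under median centring 6 of the 15 rises described below, those of GFAP, MT3, LCAT, GJB2, PYGM and GLUT8, did not pass.

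With each gene symbol represented by its brightest probe, 886 symbols were tested. At 145 d 30 of them were higher (3.39%), with changes of 0.54 to 6.87 on the log2 scale, and 14 were lower (1.58%), with changes of -2.39 to -1.25, against a median of 0.01 over all symbols. The counts of list members below stand against these shares of 3.39% and 1.58%. The 15 that rose most and 13 of the 14 that fell are described below. Levels and changes are on the log2 scale throughout, a change being 145 d minus 80 d. The 4 values given for a group are those of replicates 1 to 4. These 29 genes were chosen among those whose groups did not overlap, so any subset of the arrays keeps their direction, and values within a slide bear on the size alone. Within slide 1, with 2 arrays of each age, the changes were 1.81 to 6.88 for those that rose and -2.23 to -0.99 for those that fell. Within slide 3, with 1 array of each age and so no test, the ranges were 0.90 to 8.08 and -2.69 to -0.84. Without 145 d replicate 4, 14 of the 15 rises and 9 of the 14 falls passed the threshold.

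**Figure D2:**
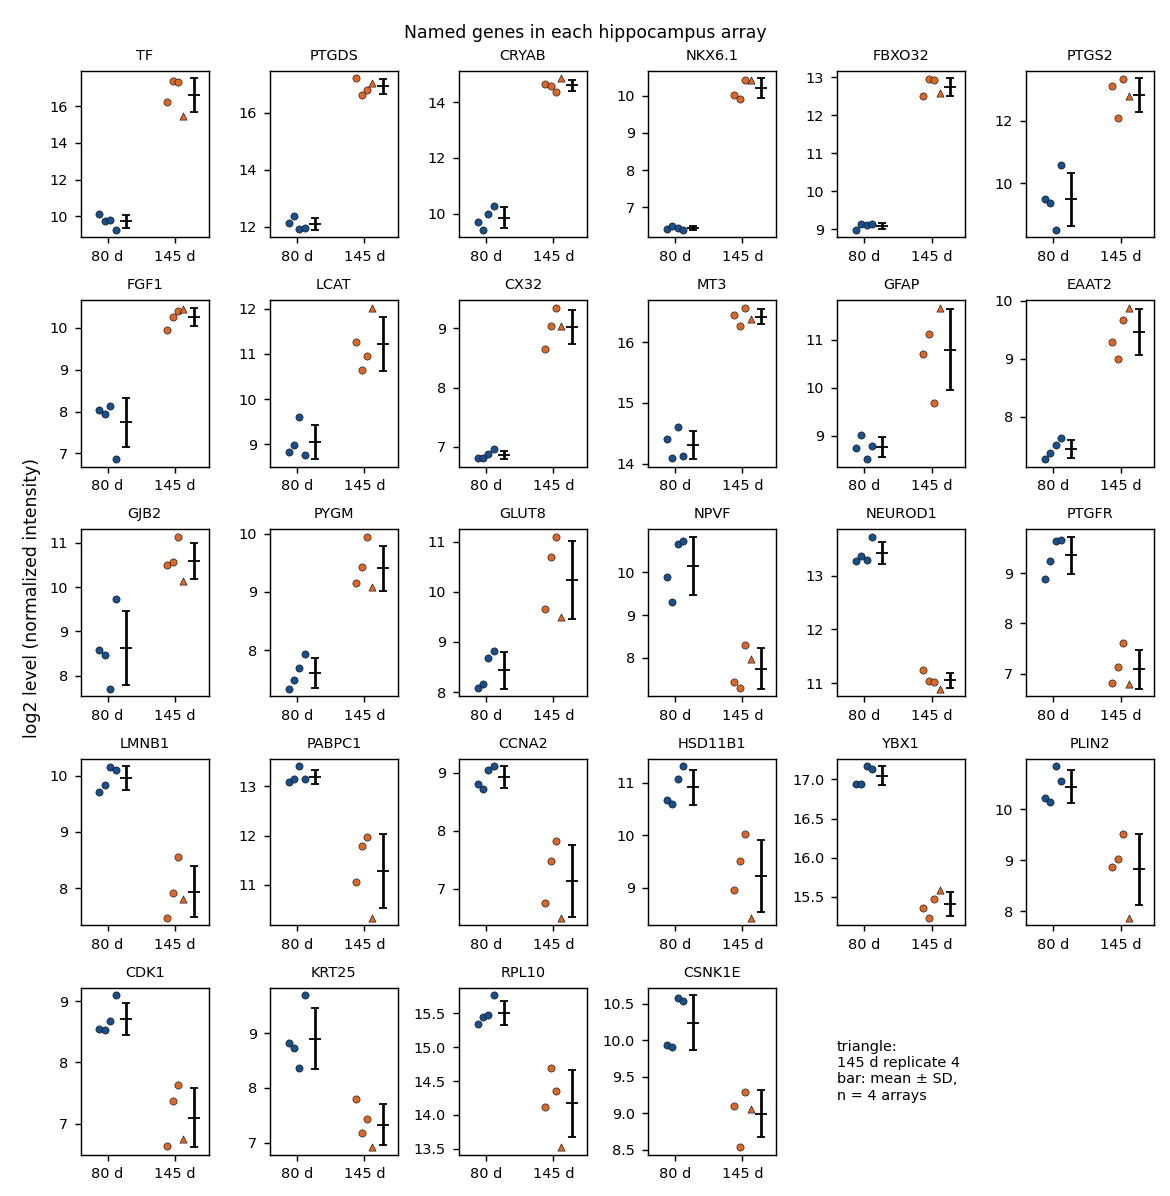
Levels on the log2 scale in each array at 80 d (blue) and 145 d (orange) of the 15 genes that rose most and 13 that fell; triangles mark 145 d replicate 4 and bars the mean ± SD of 4 arrays. Each panel has its own axis, and in every panel all arrays of one age lie above all arrays of the other.

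The largest rises of named genes were those of TF, PTGDS and CRYAB, and TF and CRYAB belong to a list of genes of oligodendrocytes, the cells that make myelin. Of its 32 genes 3 had a named probe, and all 3 rose, with a median change of 4.77 against 0.01 over all symbols. The other 29 have no named probe here, the structural proteins of myelin among them. TF encodes transferrin, the carrier of iron, which oligodendrocytes make in the brain and the liver makes for the blood. Its level was 10.13, 9.72, 9.81 and 9.25 at 80 d and 16.21, 17.39, 17.33 and 15.47 at 145 d. The lowest 145 d array was thus more than 5 log2 units above the highest 80 d array, and replicate 4 was the lowest of the 145 d arrays. The change was 6.87 (standard error 0.89, adjusted p = 8.5e-05), a 117-fold rise, and 7.25 (adjusted p = 0.000216) without 145 d replicate 4. CRYAB encodes alpha B crystallin, a small heat shock protein of glia. It stood at 9.69, 9.41, 9.99 and 10.28 at 80 d and 14.64, 14.57, 14.36 and 14.87 at 145 d, so that all 145 d arrays were close to each other and far above 80 d. It rose by 4.77 (standard error 0.34, adjusted p = 5.71e-08), 27.2-fold. CX32, a gap junction protein of myelinating cells, was low at 6.80 to 6.96 at 80 d and stood at 8.65, 9.04, 9.35 and 9.04 at 145 d. Its change was 2.16 (standard error 0.26, adjusted p = 4.03e-05). TF is also a plasma protein. Of 10 genes of plasma proteins tested TF alone passed, and 8 of the 10 had a change above 0, TF included. The albumin gene ALB changed by 0.25 (adjusted p = 0.866) and AHSG by 1.70 (adjusted p = 0.399). The mean level of that list was 8.92 to 9.85 at 80 d and 9.85 to 10.87 at 145 d, TF included, and its part in the change of TF was not tested.

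Astrocytes support neurons and clear transmitter from synapses. Of 26 genes of the astrocyte list 8 were tested, 4 rose (GFAP, EAAT2, MT3 and GJA1), against 3.39% of all symbols, 0 fell and 4 did not pass. The median change was 1.15 (1.24 without 145 d replicate 4, where 3 rose). Over 6 scalings of the arrays the median ranged from 0.69 to 1.77. With median centring GFAP and MT3 kept their direction but lost their calls, at 1.27 (adjusted p = 0.17) and 1.16 (adjusted p = 0.243). GFAP, the intermediate filament of astrocytes, had levels of 8.75, 9.02, 8.51 and 8.79 at 80 d and 10.70, 11.13, 9.69 and 11.67 at 145 d. The 145 d arrays were spread over about 2 log2 units, with replicate 4 the highest and replicate 3 the lowest, and all were above 80 d. Its change was 2.03 (standard error 0.33, adjusted p = 0.000869) and 1.74 (adjusted p = 0.00381) without replicate 4, and its second probe rose by 2.28 (adjusted p = 8.52e-06). EAAT2, the main glutamate transporter of astrocytes, rose from 7.27, 7.38, 7.52 and 7.63 at 80 d to 9.28, 8.99, 9.67 and 9.88 at 145 d, with no overlap. The change was 2.01 (standard error 0.28, adjusted p = 0.000169). Its second probe changed by 1.84 (adjusted p = 0.0546), and a further probe that the array design names GLT-1, another name of the same transporter, was low at both ages and changed by 0.04 (adjusted p = 0.934). MT3, the metallothionein of the brain, which binds zinc and copper, was bright at both ages, at 14.41, 14.10, 14.60 and 14.13 at 80 d and 16.45, 16.27, 16.57 and 16.39 at 145 d. The groups lay well apart and each within about 0.5 of a log2 unit. MT3 rose by 2.11 (standard error 0.27, adjusted p = 7.52e-05), 4.33-fold. GJA1 encodes connexin 43, the gap junction protein of astrocytes, and its change was 0.89 (standard error 0.23, adjusted p = 0.0307), which was 0.79 (adjusted p = 0.119) without replicate 4. A brighter probe that the array names CONNEXIN 43 stood at 12.23 at 80 d and changed by 0.24 (adjusted p = 0.95), so that the probes of this gene do not give one value. The 2 names were kept apart as symbols. Had the brightest probe stood for both, GJA1 would not count among the 4 rises of the list. The 4 members that did not pass were the glutamate transporter EAAT1 at 1.29, the water channel AQP4 at 1.01, the bicarbonate transporter SLC4A4 at 0.09 and the receptor FGFR3 at 0.00, with adjusted p of 0.220 to 0.997.

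PTGDS makes prostaglandin D2 in the brain and is also secreted into the cerebrospinal fluid by meninges, choroid plexus and oligodendrocytes. It stood at 12.14, 12.38, 11.93 and 11.97 at 80 d and 17.20, 16.63, 16.80 and 17.03 at 145 d. Each group was tight, and the groups were over 4 log2 units apart. The change was 4.81 (standard error 0.40, adjusted p = 4.36e-07), 28.1-fold, and 4.78 (adjusted p = 3.87e-06) without replicate 4. PTGDS is 1 of 6 tested genes of a choroid plexus list, whose median change was 0.65. CP, which encodes ceruloplasmin, rose by 0.99 (standard error 0.28, adjusted p = 0.0479), and since no 80 d array was well above background (0 of 4), it was at least 1.89-fold higher at 145 d. Without replicate 4 its change was 0.98 (adjusted p = 0.118). TTR, the transthyretin of choroid plexus, was 14.15, 11.06, 16.02 and 15.23 at 80 d and 16.35, 16.87, 11.91 and 12.60 at 145 d, so that it varied within each group by about 5 log2 units and the groups overlapped (change 0.32, standard error 1.49, adjusted p = 0.945). PTGDS was tight within each age, and whether the 2 genes vary together was not tested. The mean level of the list was 10.05 to 10.74 at 80 d and 10.52 to 12.82 at 145 d, PTGDS included, and its part in the rise of PTGDS was not tested. Of further genes of prostaglandins PTGS2 rose and PTGFR fell. PTGS2, the inducible cyclooxygenase, had levels of 9.49, 9.37, 8.51 and 10.59 at 80 d and 13.10, 12.08, 13.33 and 12.78 at 145 d, with 80 d replicate 4 the highest of its group and still below every 145 d array. It rose by 3.34 (standard error 0.56, adjusted p = 0.000895). A dimmer second probe of PTGS2 changed by 1.04 (adjusted p = 0.324). PTGFR, the receptor of prostaglandin F2 alpha, went the other way, with 8.89, 9.24, 9.64 and 9.66 at 80 d and 6.81, 7.13, 7.61 and 6.79 at 145 d. It fell with a change of -2.27 (standard error 0.35, adjusted p = 0.000403), and 3 of the 4 145 d arrays were well above background. The constitutive cyclooxygenase PTGS1 changed by -1.44 (adjusted p = 0.144), and the prostaglandin E receptors PTGER2, PTGER3 and PTGER4 by -0.10, 0.07 and 0.26, none past the threshold.

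Of the growth factors and their receptors 51 were tested, 1 was higher, 0 lower, and the median was 0.00. These counts are near the shares over all symbols, 3.39% higher and 1.58% lower. The one that rose was FGF1, the acidic fibroblast growth factor, with 8.04, 7.93, 8.14 and 6.86 at 80 d and 9.95, 10.24, 10.39 and 10.45 at 145 d. Replicate 4 was the lowest 80 d array by about 1 log2 unit, and the 145 d arrays were tight. Its change was 2.51 (standard error 0.24, adjusted p = 2.77e-06), 5.71-fold. Among genes of progenitors and immature neurons 6 were tested, 1 was higher and 1 lower. NKX6.1, a homeodomain transcription factor of ventral progenitors and of the oligodendrocyte lineage, was well above background on 0 of 4 arrays at 80 d, at 6.39 to 6.50, and on 4 of 4 at 145 d, at 10.01, 9.92, 10.43 and 10.43. The 80 d group therefore has only a bound, and NKX6.1 was at least 12.8-fold higher at 145 d (adjusted p = 4.77e-07). NEUROD1, the transcription factor of immature granule neurons, fell. Its levels were 13.28, 13.37, 13.28 and 13.72 at 80 d and 11.25, 11.04, 11.03 and 10.90 at 145 d, both groups were tight, and replicate 4 lay with the other 145 d arrays. The change was -2.36 (standard error 0.24, adjusted p = 5.56e-06), 5.12-fold lower, and -2.31 (adjusted p = 4.14e-05) without replicate 4. Its second probe changed by -2.09 (adjusted p = 9.32e-05). The other 4 members did not pass, among them PAX6 of neural progenitors at 0.46, VIM, the vimentin of radial glia, at 0.33 and the chemokine receptor CXCR4 at -1.31. Of 9 tested genes of mature neurons and their synapses 1 was higher, the glutamate receptor MGLUR1 (change 0.54, standard error 0.15, adjusted p = 0.0468, and adjusted p = 0.175 without replicate 4), 0 were lower, and the median was 0.54. The AMPA receptor subunits GRIA1, GRIA2 and GRIA3 changed by -0.21, 0.60 and 1.29, the peptides NPY, SST and TAC1 by 0.72, 0.48 and -0.16, and the NMDA receptor subunit GRIN1 by 0.60, with adjusted p of 0.298 to 0.895. The median of this list turned to -0.23 with each array centred on its median. The 9 include no gene that marks hippocampus alone, so markers do not check the tissue label. The correlations with other regions given above are those of 145 d replicate 4 alone, and the label of the other arrays was not checked.

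LMNB1, CCNA2 and CDK1, genes that dividing cells use, fell. Of 60 cell cycle genes 13 were tested, 0 were higher and 3 lower (1 without 145 d replicate 4), against 1.58% of all symbols lower. The median change was -0.94, which was -0.67 without that array and -1.08 to -0.91 over 6 scalings. The mean level of the list was 9.90 to 10.11 at 80 d and 8.68 to 9.61 at 145 d, with replicate 4 the lowest. LMNB1 encodes lamin B1 of the nuclear envelope, which dividing cells hold in large amounts. It stood at 9.71 to 10.16 at 80 d and 7.48, 7.92, 8.56 and 7.82 at 145 d, more than 1 log2 unit apart, and its change was -2.01 (standard error 0.21, adjusted p = 5.7e-06), and -1.97 (adjusted p = 4.22e-05) without replicate 4. CCNA2, the cyclin A2 of S phase and mitosis, was 8.81, 8.73, 9.05 and 9.12 at 80 d and 6.75, 7.48, 7.82 and 6.50 at 145 d, and CDK1, the kinase that drives mitosis, 8.54, 8.53, 8.67 and 9.09 and 6.64, 7.37, 7.64 and 6.76. For both the groups did not overlap, and replicates 1 and 4 were the lowest 145 d arrays. The changes were -1.79 (standard error 0.44, adjusted p = 0.0198) and -1.61 (standard error 0.38, adjusted p = 0.016), and without replicate 4 neither passed, with -1.58 (adjusted p = 0.0862) and -1.49 (adjusted p = 0.0608). Further members did not pass, among them TYMS at -1.73 (adjusted p = 0.0658), which makes thymidylate for DNA, PCNA, the clamp of DNA polymerase, at -1.67 (adjusted p = 0.186), and CDKN1C, an inhibitor of the cycle, at 2.00 (adjusted p = 0.2), the largest positive value of the list.

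YBX1, PABPC1 and CSNK1E fell in a list named for chromatin, splicing and RNA binding, and RPL10 among ribosomal genes. The first list also holds the kinase CSNK1E and the polyamine enzyme ODC1, which its name does not describe, so its counts are not those of 1 function. Of the 7 tested genes of that list 3 were lower (2 without replicate 4), against 1.58% of all symbols, and 0 higher. The median change was -1.25, which is the value of CSNK1E, with a range of -2.13 to -1.21 over 6 scalings. YBX1, a cold shock protein that binds mRNA, was among the brightest probes, at 16.94, 16.94, 17.17 and 17.14 at 80 d and 15.36, 15.23, 15.48 and 15.58 at 145 d. The groups were tight and about 1.5 log2 units apart. YBX1 changed by -1.63 (standard error 0.24, adjusted p = 0.00027), and its second probe by -2.35 (adjusted p = 9.06e-06). Scaling Agilent's processed signal by its 75th percentile gave a change of -1.21 (adjusted p = 0.4) on this probe. PABPC1, which binds the poly(A) tail of mRNA, fell from 13.09, 13.15, 13.41 and 13.15 at 80 d to 11.06, 11.78, 11.96 and 10.32 at 145 d, with replicate 4 the lowest. Its change was -1.92 (standard error 0.50, adjusted p = 0.033) and -1.60 (adjusted p = 0.14) without replicate 4. CSNK1E, the epsilon isoform of casein kinase 1, changed by -1.25 (standard error 0.25, adjusted p = 0.00512), lying between 9.91 and 10.58 at 80 d and between 8.54 and 9.29 at 145 d. ODC1, which makes polyamines, changed by -2.37 with 145 d values of 12.19, 13.10, 13.68 and 10.56 and did not pass (adjusted p = 0.128). Of 19 tested ribosomal and translation genes 1 passed and was lower, while 18 of the 19 had a change below 0 and the median was -0.64. The median was -0.30 with the processed signal and -1.47 with median centring. The mean level of the list was 16.19 to 16.47 at 80 d and 14.88 to 15.98 at 145 d, and replicate 4 was the lowest array. RPL10, of the large subunit, stood at 15.34 to 15.76 at 80 d and at 14.12, 14.69, 14.36 and 13.52 at 145 d (change -1.33, standard error 0.29, adjusted p = 0.0083). Of its other 2 probes one changed by -1.39 (adjusted p = 0.0124) and a dimmer one by 0.76 (adjusted p = 0.835). Genes of ribosomal proteins have many processed copies in mammalian genomes, so probes may not tell them apart.

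Of 26 tested genes of the glucocorticoid and stress axis 1 was higher, the PTGS2 described above, and 1 lower, with a median of 0.08. Both counts are near the shares over all symbols, 3.39% higher and 1.58% lower. HSD11B1, the enzyme that regenerates cortisol from cortisone inside cells, was 10.67, 10.60, 11.07 and 11.32 at 80 d and 8.96, 9.51, 10.02 and 8.43 at 145 d. All 145 d arrays were below 80 d, replicate 4 the most. Its change was -1.69 (standard error 0.32, adjusted p = 0.00264) and -1.42 (adjusted p = 0.0136) without replicate 4, and its second probe changed by -1.24 (adjusted p = 0.0714). HSD11B2, which inactivates cortisol, was well above background on 2 of 4 arrays at each age and changed by 0.02 (adjusted p = 0.972), and the glucocorticoid receptor NR3C1 by 0.27 (adjusted p = 0.695). Of 12 tested genes of glycolysis and glucose uptake 1 was higher. GLUT8, a glucose transporter of internal membranes, stood at 8.09, 8.16, 8.68 and 8.81 at 80 d and 9.66, 10.69, 11.10 and 9.49 at 145 d, and its change of 1.80 (standard error 0.50, adjusted p = 0.0472) passed in 15 of 26 other settings at this threshold. GLUT-1 of the blood-brain barrier changed by 0.13 and the neuronal transporter SLC2A3 by 0.66 (adjusted p = 0.953 and 0.363). PYGM, a glycogen phosphorylase, was 7.34, 7.48, 7.68 and 7.93 at 80 d and 9.16, 9.43, 9.95 and 9.09 at 145 d and rose by 1.80 (standard error 0.28, adjusted p = 0.000464). Of 21 tested genes of fatty acids, sterols and lipoproteins 1 was higher and 1 lower, with a median of 0.04. Such counts are also near the shares over all symbols. LPL, the lipoprotein lipase, rose by 0.73 (standard error 0.19, adjusted p = 0.0346), but by 0.67 (adjusted p = 0.118) without replicate 4, and its second probe changed by 0.62 (adjusted p = 0.162). PLIN2, which coats lipid droplets, was lower at 7.87 to 9.51 than at 10.14 to 10.84 (change -1.62, standard error 0.43, adjusted p = 0.0325, and -1.30 without replicate 4, adjusted p = 0.143). LCAT, which esterifies cholesterol in lipoproteins and belongs to none of the lists, rose from 8.78 to 9.61 at 80 d to 11.27, 10.64, 10.95 and 12.03 at 145 d, with replicate 4 the highest, by 2.17 (standard error 0.51, adjusted p = 0.0167), and by 1.90 (adjusted p = 0.0764) without it. ACLY, which makes acetyl-CoA in the cytosol, passed only without replicate 4, at 1.49 (adjusted p = 0.0281) against 1.03 (standard error 0.41, adjusted p = 0.202) with all arrays. Of 11 genes of redox, iron and copper 4 were higher, against 3.39% of all symbols, and 0 lower. Without replicate 4, where CP did not pass, 3 were higher. The 4 are TF, MT3 and CP, described above, and PRNP, the prion protein, which binds copper, at 13.80 to 14.35 and 14.97 to 15.37 (change 1.11, standard error 0.22, adjusted p = 0.00454), while its 3 other probes, all dimmer, changed by 0.60 to 0.94 and did not pass.

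The remaining named genes fit none of these groups. FBXO32, a subunit of an SCF ubiquitin ligase best known from muscle, was tight at 8.98, 9.13, 9.12 and 9.14 at 80 d and 12.52, 12.95, 12.94 and 12.58 at 145 d and rose by 3.66 (standard error 0.29, adjusted p = 2.07e-07), 12.6-fold. GJB2, the connexin 26 found in meninges among other tissues, was 8.59, 8.46, 7.71 and 9.74 at 80 d and 10.50, 10.57, 11.14 and 10.14 at 145 d and rose by 1.96 (standard error 0.42, adjusted p = 0.00729). It has 5 probes, of which 2 passed and 3 dimmer ones changed by 0.42 to 0.59. NPVF, the precursor of the RFamide peptides that inhibit gonadotropin release, made by neurons of the hypothalamus, had 9.88, 9.31, 10.66 and 10.73 at 80 d and 7.44, 7.31, 8.31 and 7.97 at 145 d in hippocampus. The groups did not overlap and the change was -2.39 (standard error 0.35, adjusted p = 0.000251), and its second probe changed by -2.14 (adjusted p = 0.00148). KRT25, a hair follicle keratin, was lower at 6.92 to 7.80 than at 8.36 to 9.69 (change -1.57, standard error 0.36, adjusted p = 0.0135, and -1.44 without replicate 4, adjusted p = 0.0579).

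No gene passed in the lists of microglia and myeloid cells (20 tested, median -0.08), T cells and lymphocytes (12, 0.06), antigen presentation and interferon (15, 0.00), endothelium and blood-brain barrier (26, 0.08), erythroid cells (4, -0.14), immediate early genes (7, 1.07), mitochondrial respiration (13, -0.23), lysosome (14, 0.04) and receptors for transmitters and hormones (27, 0.10). Over all symbols 3.39% were higher and 1.58% lower, so for each of these lists alone a count of none is near that share. The median of the immediate early genes depended on the arrays and the scaling. It was 0.74 without replicate 4, the highest array of that list at 11.36 against 9.93 to 10.47 in the other 145 d arrays, and 0.24 with median centring. IL12A, a subunit of interleukin 12, is in none of these lists and was named after its values were seen. It rose by 1.48 (standard error 0.29, adjusted p = 0.00353), and by 1.44 (adjusted p = 0.0144) without replicate 4, and its second probe rose by 1.26 (adjusted p = 0.000862). The microglial markers with a named probe include ITGAM at -0.11, ITGB2 at -1.02 and CD14 at -0.12, and their adjusted p was 0.439 to 0.845. ITGAM was dim, well above background on 3 of 4 arrays at 80 d and 1 of 4 at 145 d. ITGB2 had the lowest change of the microglial list and IL1B the highest, at 0.29 (adjusted p = 0.494). Of the 20 genes 6 had a change above 0, FCER1G at 0.16 among them. The mean level of the list was 7.67 to 7.81 at 80 d and 7.42 to 7.78 at 145 d. HBB, the beta globin of red cells, was 14.75, 14.41, 13.53 and 15.25 at 80 d and 12.05, 13.38, 9.03 and 10.89 at 145 d, and its change of -3.15 did not pass (adjusted p = 0.0708). HBB varied by over 4 log2 units among the 145 d arrays, and its second, dimmer probe went the other way without passing, at 1.93 (adjusted p = 0.399). The mean level of the erythroid list was 8.68 to 9.17 at 80 d and 7.41 to 8.68 at 145 d. Of 16 genes of fibroblasts, meninges and matrix the collagen COL2A1 alone passed (change 0.79, standard error 0.21, adjusted p = 0.0363, and adjusted p = 0.138 without replicate 4), and the list's median was 0.16. The median of the microglial, antigen presentation, erythroid, growth factor, lipid, lysosome, glycolysis, progenitor and mature neuron lists changed sign under at least 1 of 6 scalings.

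**Figure D3:**
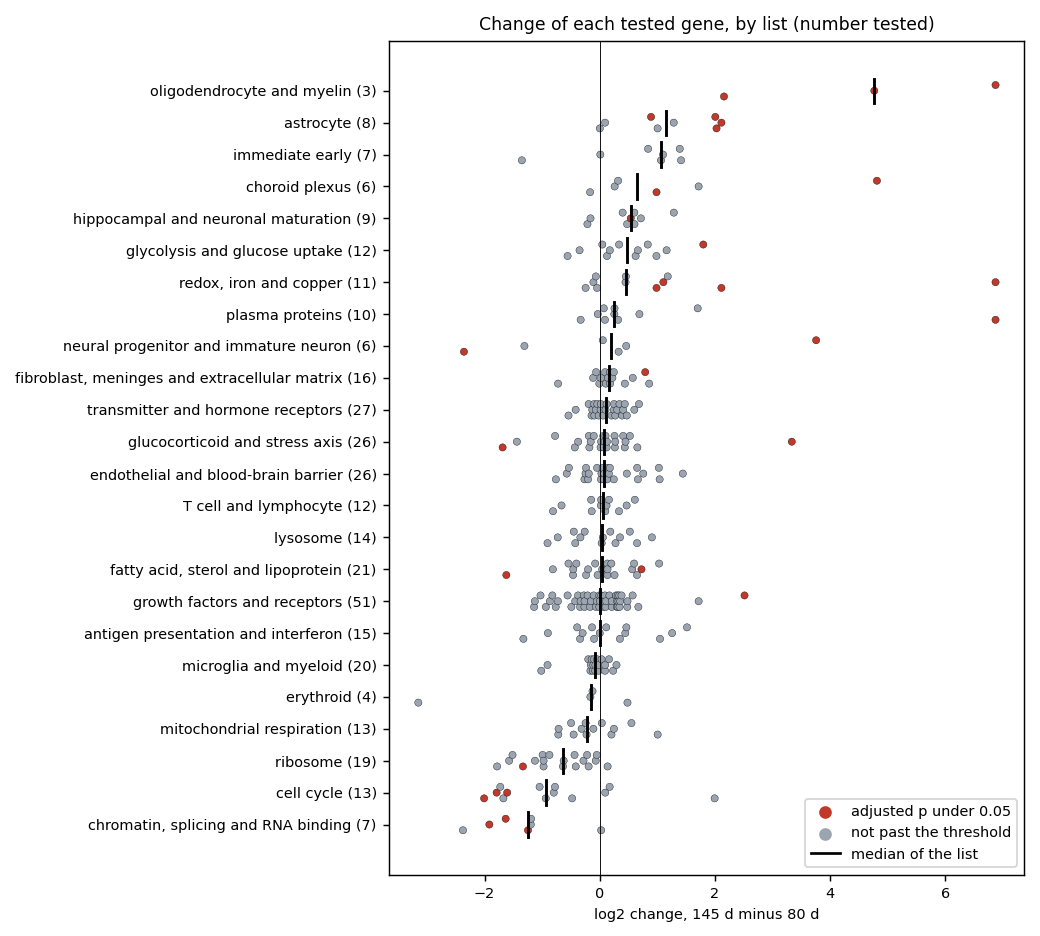
Change from 80 d to 145 d on the log2 scale of each tested gene, by list, with the number tested in brackets; red points passed the threshold, and black bars are list medians. The oligodendrocyte list lies furthest to the right at a median of 4.77, the chromatin and cell cycle lists furthest to the left at -1.25 and -0.94, and most lists centre near 0.

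The arrays of 100 d, 120 d and 130 d were compared with the same 80 d arrays. These contrasts share the 80 d arrays with that of 145 d, so they are given side by side and not as support. Against 80 d, 6 probes had changed at 100 d (0.0445%, where 3 arrays were measured and 615 probes had an unadjusted p under 0.05), 182 at 120 d (1.35%) and 426 at 130 d (3.16%). Of the 15 named genes that rose, 2 passed at 100 d, 12 at 120 d and 13 at 130 d, and of the 14 that fell 0, 4 and 9. FGF1 and PTGDS were the 2 that passed at 100 d. FGF1 had a mean of 7.74 ± 0.59 at 80 d, 9.44 ± 0.47 at 100 d and 10.07 ± 0.09 at 120 d (SD, n = 4, 3 and 4), and its means at the later ages were 10.16 to 10.31. PTGDS went from 12.10 ± 0.21 over 14.52 ± 0.54 and 15.71 ± 0.73 to 16.92 ± 0.25. TF followed a later course. Its mean was 9.73 ± 0.36 at 80 d, 9.90 ± 0.75 at 100 d, 14.64 ± 2.17 at 120 d, 15.49 ± 1.58 at 130 d and 16.60 ± 0.93 at 145 d, and the spread between arrays was widest at 120 d. CRYAB and NKX6.1 also rose after 100 d, with 10.79 ± 0.89 and 6.70 ± 0.27 at 100 d against 13.81 ± 0.35 and 9.21 ± 0.24 at 130 d. NEUROD1 stood at 100 d at 12.20 ± 0.36, which did not pass against 80 d (adjusted p = 0.198), and at 11.16 ± 0.39 by 130 d. LMNB1 went from 9.95 ± 0.21 over 9.06 ± 0.21 at 120 d to 7.94 ± 0.45 at 145 d. HSD11B1 and NPVF were late. HSD11B1 was 10.91 ± 0.34, 11.12 ± 0.44 and 10.57 ± 0.40 at 80, 100 and 120 d, and NPVF 10.15 ± 0.68, 11.27 ± 0.65 and 10.48 ± 0.44, and neither passed against 80 d before 145 d. At 1 d after birth they stood at 8.83 ± 0.25 and 7.24 ± 0.35.

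**Figure D4:**
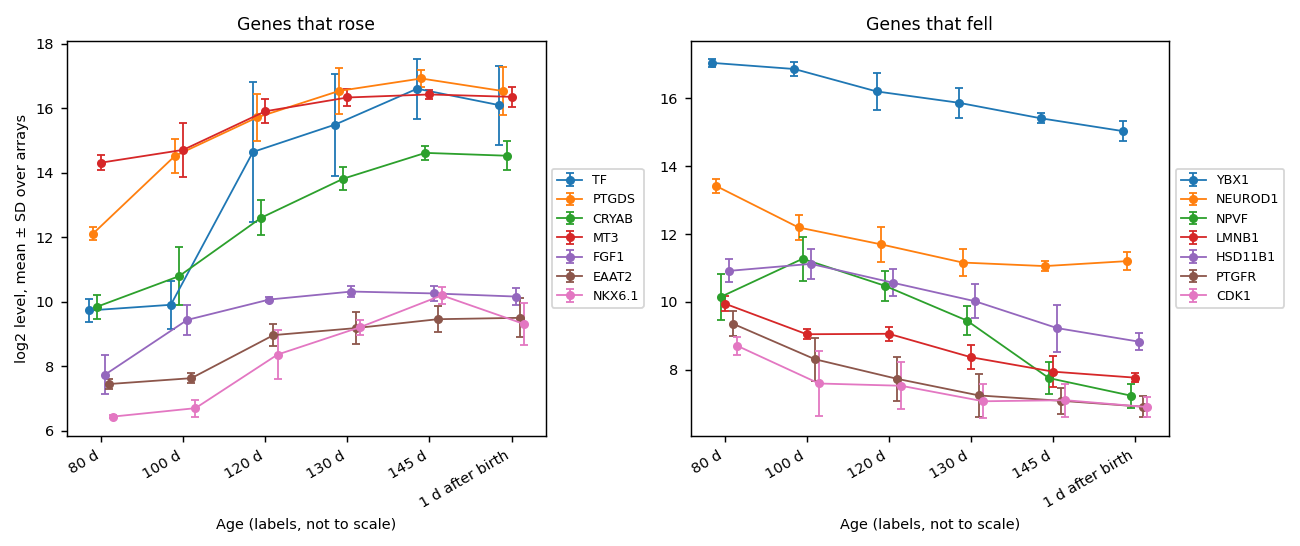
Mean ± SD of the log2 level over the arrays of each hippocampus age (n = 4, and 3 at 100 d) for 7 genes that rose and 7 that fell between 80 d and 145 d; ages are spaced evenly and points shifted slightly so that bars can be told apart. TF stays near 9.9 until 100 d and reaches 16.6 at 145 d, FGF1 is close to its final level by 120 d, and NPVF falls after 120 d.

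Whether a change was the same in other parts of the brain was tested by the difference between the changes in one fit over all 95 arrays. The hippocampal change differed from that of cortex for 234 probes (1.74%), 76 of them with the higher value in hippocampus and 158 with the lower, from brainstem for 428 (3.17%, 255 and 173) and from hypothalamus for 258 (1.91%, 135 and 123). Without 145 d replicate 4 the counts were 157 (1.16%), 331 (2.45%) and 91 (0.675%). Scaling Agilent's processed signal by its 75th percentile moved the share with the higher value in hippocampus from 59.6 to 73.2% against brainstem and from 52.3 to 63.1% against hypothalamus. All 15 named genes that rose in hippocampus had a change above 0 in each of the other regions, and the change differed from that of cortex for 3 of them, of brainstem for 9 and of hypothalamus for 5. These genes were chosen as the largest hippocampal rises, and the same hippocampus arrays enter each difference. The choice thus favours such differences, and their counts are not a result about the regions. Against cortex the largest differences with a symbol were those of KRT25, MET, NKX6.1, FBXO32 and SLC2A5. KRT25 changed by -1.57 in hippocampus and 1.08 in cortex, a difference of -2.66 (adjusted p = 0.000221). MET, the receptor of hepatocyte growth factor, changed by -1.14 and 1.15 (difference -2.29 (adjusted p = 0.000345)), though its hippocampal change did not pass on its own (adjusted p = 0.168). FBXO32 rose more in hippocampus, by 2.14 (adjusted p = 3.93e-05). The difference for NKX6.1 was 2.27 (adjusted p = 0.000142), a size that rests on a hippocampal level at 80 d not well above background. SLC2A5, a fructose transporter, had -1.34 and 0.70, a difference of -2.04 (adjusted p = 0.0123) that became -1.82 (adjusted p = 0.054) without replicate 4. Against brainstem they were those of PRL, PTGS2, EM4C, TF and SERPINA1. PTGS2 rose by 3.34 in hippocampus and 3.65 in cortex, but changed by 0.02 in brainstem and 0.50 in hypothalamus, differences of 3.32 (adjusted p = 1.82e-05) and 2.84 (adjusted p = 0.000707). TF rose by 6.87 in hippocampus against 3.75 in brainstem (difference 3.12 (adjusted p = 0.0142)). The other 3 did not pass within hippocampus. PRL (prolactin) changed by 0.09, and EM4C by -0.39, against -3.53 and 2.85 in brainstem, and both were dim in hippocampus. SERPINA1 (alpha-1 antitrypsin) was well above background on 2 of 4 hippocampus arrays at 80 d and 0 of 4 at 145 d, so its hippocampal change has no exact size, while it changed by -3.15 in brainstem. Against hypothalamus they were those of NPVF, PTGFR, PTGS2, CAMK2 and EIF4A2. NPVF fell in hippocampus (-2.39) and had 0.61 in hypothalamus, a difference of -3.00 (adjusted p = 4.21e-06). PTGFR had -2.27 and 0.65, a difference of -2.93 (adjusted p = 2.16e-09). CAMK2, a calcium and calmodulin dependent kinase, had 2.20 and -0.23, and EIF4A2, an RNA helicase of translation with 1 of 4 values missing at 145 d, -2.04 and 0.29. Neither passed within hippocampus, and without replicate 4 neither difference passed, at 1.89 (adjusted p = 0.0855) and -1.70 (adjusted p = 0.204). NEUROD1 fell by 5.03 in brainstem, more than in hippocampus, with a difference of 2.67 (adjusted p = 0.00172). For GFAP, EAAT2, LMNB1, CDK1 and CCNA2 no difference from any of the 3 regions passed.

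**Figure D5:**
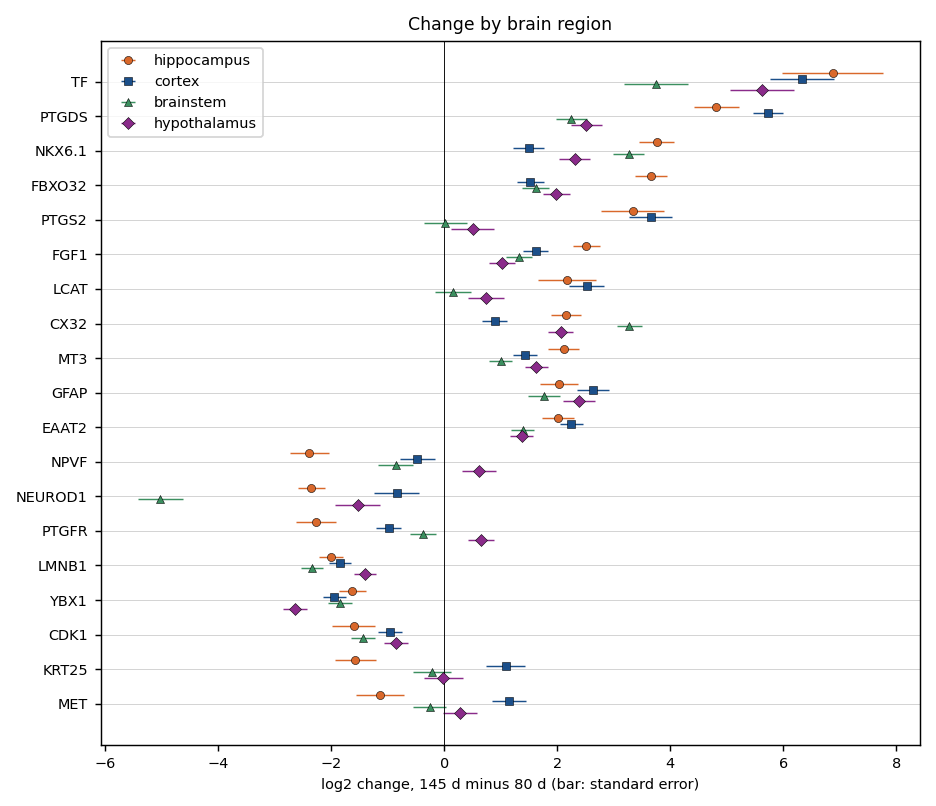
Change from 80 d to 145 d on the log2 scale in 4 brain regions for 19 of the genes described, with bars of 1 standard error. For PTGS2 and LCAT the points of hippocampus and cortex lie to the right of brainstem and hypothalamus, for FBXO32 hippocampus lies alone at 3.66, and for NPVF and PTGFR hippocampus lies furthest left.

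Most probes that changed have no symbol, and whether such a probe measures one of the genes named above was not tested. The 2 that rose most were A_70_P001556 and A_70_P022141, and the 2 that fell most A_70_P039056 and A_70_P037481. A_70_P001556 was 11.71, 11.54, 11.48 and 11.60 at 80 d and 17.55, 16.75, 17.65 and 17.25 at 145 d, a change of 5.72 (adjusted p = 2.06e-08). A_70_P022141, whose sequence is printed above, lay between 6.69 and 7.43 at 80 d and was 11.68, 13.42, 13.01 and 10.61 at 145 d, with replicate 4 the lowest of its group as for TF (change 5.08, adjusted p = 0.0014). A_70_P039056 fell from 13.41, 13.37, 14.09 and 14.11 to 9.98, 10.14, 10.56 and 8.14 (change -4.04, adjusted p = 0.00427). A_70_P037481 was uneven at 80 d, with 14.19, 15.56, 16.09 and 12.23 at 80 d and 10.93, 10.34, 10.54 and 11.47 at 145 d (change -3.70, adjusted p = 0.00242), and the groups still did not overlap.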

How the data were processed

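Hippocampus RNA was hybridized to Agilent sheep arrays, 1 sample an array, and read with Feature Extraction (version 10.1.1.1 in the files). Per array, the authors deposited the scanner output, with a linear mean intensity, a local background intensity and a processed intensity for each spot, not yet normalized between arrays. The authors also deposited a table of log2 values, made with limma per the labels, which served as an alternative. Each of its 95 columns correlated best with its own array here.

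Groups came from the sample labels. From the files, background was removed by normexp with an offset of 50, by which changes of dim probes come out smaller, and the log2 values were quantile normalized over all arrays (limma 3.58.1, R 4.3.3). Spots with an outlier mark were left out, and 594 of the probes kept had every spot marked on at least 1 hippocampus array. Control spots were left out, and a probe was kept if 4 or more hippocampus arrays exceeded 1.1 times the 95th percentile of their negative controls, 77 spots an array. The 6 hippocampus ages were fitted together with lmFit and eBayes, and the contrast 145 d minus 80 d was adjusted by Benjamini-Hochberg over all probes. The region comparison used 1 fit over all groups. The fits were tested on simulated data. The study's own temporal test is not used here.

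A probe's symbol came from the files and the RefSeq table of ARS-UI_Ramb_v3.0, through the accession for 704 probes, the gene identifier for 125, the symbol itself for 500 and a synonym for 22. Another 211 keep the name of the file. Named genes are the 15 largest rises and up to 15 largest falls that passed and did not overlap, list members, and the 5 largest differences from each region. IL12A and the probes named GLT-1 and CONNEXIN 43 fall outside this rule and were chosen after their values were seen. A gene that fell and its list, and 1 probe sequence, are not reported here. The members, lists and tests were chosen with earlier results of these data known, and older spellings of 13 symbols were added to the lists after their values were seen. "At least" folds set the bright group against the lowest signal well above background. Alternatives were other background, scaling, filter, probe, block, weight and threshold settings, and each array left out in turn. The number of arrays limits the precision. Figures were drawn with matplotlib 3.10.9.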

Additional observations from a re-analysis of the deposited data

Results flagged for a closer look

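In 3 of 73 groups of 4 arrays of the named genes and array values, 1 array lay far from the other 3, and chance gives about 1 in 20 such groups. At 80 d FBXO32 was 8.98 in replicate 1 against 9.12 to 9.14 in the others, FGF1 was 6.86 in replicate 4 against 7.93 to 8.14, and PRL was 6.35 in replicate 4 against 6.81 to 6.84.

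The change from 80 d to 145 d in hippocampus differed from that in another region, by limma's test of the difference, for 36 of 108 pairs of named gene and region, with adjusted p of 2.16e-09 to 0.0486. The pairs share the 8 hippocampus arrays, and the genes were in part chosen for these differences. Each value is the hippocampal change minus the change of the other region on the log2 scale. Against cortex the differences were 2.27 for NKX6.1, 2.14 for FBXO32, 1.27 for CX32, -1.92 for NPVF, -1.28 for PTGFR, -2.66 for KRT25, -2.29 for MET, -2.04 for SLC2A5, -1.95 for EM4C and -2.02 for EIF4A2. Against brainstem they were 3.12 for TF, 2.57 for PTGDS, 2.04 for FBXO32, 3.32 for PTGS2, 1.19 for FGF1, 2.02 for LCAT, -1.12 for CX32, 1.11 for MT3, 1.84 for GJB2, -1.53 for NPVF, 2.67 for NEUROD1, -1.90 for PTGFR, -1.69 for SLC2A5, 3.61 for PRL, -3.24 for EM4C and 2.82 for SERPINA1. Against hypothalamus they were 2.30 for PTGDS, 1.45 for NKX6.1, 1.67 for FBXO32, 2.84 for PTGS2, 1.49 for FGF1, -3.00 for NPVF, -2.93 for PTGFR, 1.01 for YBX1, 2.42 for CAMK2 and -2.33 for EIF4A2. The sizes for NKX6.1 and SERPINA1 are not exact, since NKX6.1 at 80 d and SERPINA1 at 145 d were well above background on 0 of 4 hippocampus arrays. Of the named genes FBXO32, NPVF and PTGFR differed from all 3 regions.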

How the results depend on the processing

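The count of 578 probes changed from 80 d to 145 d became 359 with median centring in place of quantile (6.41% of them higher, against 48.1%), 880 with the slide as a random block, 837 with the slide as a fixed block, 2533 with array weights, whose estimate did not reach its tolerance, 298 at an adjusted p under 0.01 and 53 under 0.0001. Alternatives chosen after seeing the data gave 920 without the 5 arrays that stood apart and 869 without slide 4. With each of the 8 arrays left out it was 384 (without 145 d replicate 4) to 621. The other settings gave 468 to 681. Without 145 d replicate 4 the count of 384 became 2002 with array weights.

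Against 80 d, with each 80 d array left out, 2 to 3 probes changed at 100 d, 97 to 116 at 120 d and 245 to 335 at 130 d. Without 145 d replicate 4, differences from hypothalamus numbered 91 in place of 258, and from cortex and brainstem 157 and 331. With the slide as a random block the differences numbered 379 from cortex, 671 from brainstem and 416 from hypothalamus. The causes were not tested. The difference in the share of spots well above background, -1.67 percentage points, was -4.31 to 2.32 with each array left out, and positive without 145 d replicate 4 alone.

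The labels do not say that replicate numbers pair the samples. The deviations of same-numbered arrays correlated at 0.177, 0.187, 0.411 and -0.176, so not all 4 were above 0.1, and the numbers were not used as pairs. With the replicate block 649 probes changed at 145 d and 2 at 100 d in place of 6. The named rises and falls were chosen because they passed and their groups did not overlap, so leaving arrays out cannot reverse them. For each named rise or fall 28 alternatives were counted, of which 26 kept the threshold of 0.05. The others set a stricter threshold on the same fit, against which the main result was judged too. Their values therefore stayed by construction. Of 902 values of named genes under the alternatives, those included, 854 stayed on their side of the threshold, 48 lost it and 0 reversed. Among them GLUT8 lost it under 11 alternatives, without any 1 of 7 arrays included, PABPC1 and PLIN2 under 6 each, and LCAT, CCNA2, CDK1 and KRT25 without 145 d replicate 4 and without 80 d replicate 4. LCAT also lost it without 80 d replicate 1, CCNA2 without 80 d replicate 3, and CCNA2 and CDK1 without 145 d replicate 1. For these 4 genes the adjusted p without an array was at most 0.0862. With probes of a gene averaged, GJB2 (1.21, adjusted p = 0.0735) and RPL10 (-0.65, adjusted p = 0.493) did not pass. Signal over background limits what the dim probes can show.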
